A study of Mus musculus with 6 samples.

Results

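MHC class II genes encode the machinery that shows peptides from engulfed proteins to CD4+ T cells, and 10 of them were followed here in the liver of mice lacking Slug in hepatocytes. The members were named by symbol: H2-Aa, H2-Ab1, H2-Eb1, H2-Eb2, H2-DMa, H2-DMb1, H2-Oa, H2-Ob, Cd74 and Ciita. Of these 10 genes, 9 had a probe set annotated to 1 gene only and stood among the 22180 genes compared, and Cd74 was read only by a probe set annotated to both Cd74 and the microRNA gene Mir5107. That probe set is described separately and named by both genes, since its signal is not assigned to either.

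The data come from the livers of 6 C57BL/6J males, each read on its own Affymetrix whole-transcript array. HKO mice (3 arrays, genotype SlugHKO) descend from a cross of floxed Slug mice with an albumin-CreERT2 driver, a tamoxifen-inducible Cre recombinase under a promoter active in hepatocytes. Con mice (3 arrays, genotype Slug f/f) are their littermates. Both groups ate a diet deriving 60% of its calories from fat for 11 weeks, beginning when the mice were 8 weeks old, so every liver here is from a fat-fed animal. The sources used here do not say whether Con mice carry Cre or how recombination was triggered. Slug is the protein of Snai2, whose log2 values were 4.62, 5.23 and 5.69 in HKO and 7.74, 7.69 and 7.39 in Con, with no overlap. Hepatocyte markers averaged 10.89 to 11.04 on the HKO arrays and 10.85 to 10.89 on the Con arrays over 10 genes, with 0 of the 10 below the median over all genes.

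A class II molecule is a pair of an alpha and a beta chain, named A (H2-Aa with H2-Ab1) or E in mice. The pair is assembled with the invariant chain Cd74, which blocks the peptide groove until endosomal proteases degrade it. H2-DM then exchanges the remaining fragment for an antigen peptide, H2-DO restrains H2-DM, and Ciita is the transactivator that switches the genes on. Dendritic cells, B cells and macrophages are the usual carriers of class II in the liver, whereas the gene deletion was driven in hepatocytes. C57BL/6 mice do not make the E alpha chain, so their E beta chain lacks its usual partner.

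Class II promoters are known for a shared pair of elements, an X box bound by the RFX complex and a Y box bound by NF-Y, on which Ciita assembles. RefSeq promoter windows (GRCm38.p6, 250 bases before to 50 after a gene's start) were matched by symbol for 7 of the 10 members, in 8 windows because H2-DMa has more than 1 start. The letters GATTGG of the Y box, searched on both strands, were in windows of 7 of these 7 genes. Counted by window, they were in 7 of the 8 and in 16.1% of all 32851 windows. The letters of the full X box were, of the members, in the window of H2-DMb1 only, and in 0.289% of all windows. A shorter X box core, the first run of capitals in H2-Eb1 and H2-Eb2 with any base allowed at the third and the seventh place, lies inside the full letters and was chosen after the member windows had been seen. It was in H2-DMb1, H2-Eb1 and H2-Eb2 and in 0.298% of all windows. A match is a description of letters and not a site. A window without a match may still hold an X box of other letters. The stretches from 140 to 30 bases before the start are shown for H2-Aa and H2-Eb1, whose log2 values were lower in HKO, and for H2-Eb2 and H2-Oa, whose values were not. They run 5′ to 3′ on the gene's strand, and capitals mark GATTGG or its reverse complement and the X box core.
H2-Aa, chr17:34287853-34287963, minus strand: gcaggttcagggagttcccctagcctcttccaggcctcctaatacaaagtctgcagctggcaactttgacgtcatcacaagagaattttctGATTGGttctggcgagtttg
H2-Eb1, chr17:34305727-34305837, plus strand: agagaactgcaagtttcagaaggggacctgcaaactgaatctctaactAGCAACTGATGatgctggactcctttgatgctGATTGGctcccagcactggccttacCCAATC
H2-Eb2, chr17:34325535-34325645, plus strand: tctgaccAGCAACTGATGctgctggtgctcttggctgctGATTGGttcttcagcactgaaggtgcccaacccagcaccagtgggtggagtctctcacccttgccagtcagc
H2-Oa, chr17:34092239-34092349, plus strand: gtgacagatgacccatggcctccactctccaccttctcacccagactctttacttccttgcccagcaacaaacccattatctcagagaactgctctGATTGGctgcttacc
The Y box letters were in every member that had a window, so their presence could not differ with the direction of change. In H2-Aa they began 49 bases before the start, in H2-Eb1 60, in H2-Eb2 101, in H2-Oa 44 and, farther away, in H2-DMa 199. H2-Eb1 held a second copy on the opposite strand 35 bases before the start.

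HKO was set against Con to find how loss of hepatocyte Slug under fat feeding shows in liver transcripts. Among the class II genes the chains of the A molecule and the E beta chain H2-Eb1 had the lowest HKO values relative to Con, with log2 changes of -1.05 (H2-Aa), -0.98 (H2-Ab1) and -0.84 (H2-Eb1). The changes were -0.58 for the Cd74 and Mir5107 probe set, -0.55 for H2-DMa and -0.04 for Ciita. None of these differences passed the threshold: 0 of the 9 genes in the comparison had a limma adjusted p under 0.05, where 0.203% of all genes did (0.113% lower and 0.0902% higher). At an unadjusted p under 0.05, 4 of the 9 (H2-Aa, H2-Ab1, H2-Eb1 and H2-DMa) were lower and 0 higher, where 6.56% of all genes were lower and 5.31% higher. The count of lower genes was 3 without HKO replicate 1, HKO replicate 3 or Con replicate 2. The count of higher genes was 1 without Con replicate 1 or Con replicate 2. For 3 of the 9, all HKO arrays lay below all Con arrays, where 10.1% of all genes did so, and for 0 of the 9 all lay above, where 8.05% did. The median log2 change over the 9 was -0.24, beside -0.01 over all genes, and it ran from -0.42 without Con replicate 2 to -0.08 without Con replicate 1. In whole liver, fewer cells of a type and less RNA per cell cannot be told apart.

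**Figure D1:**
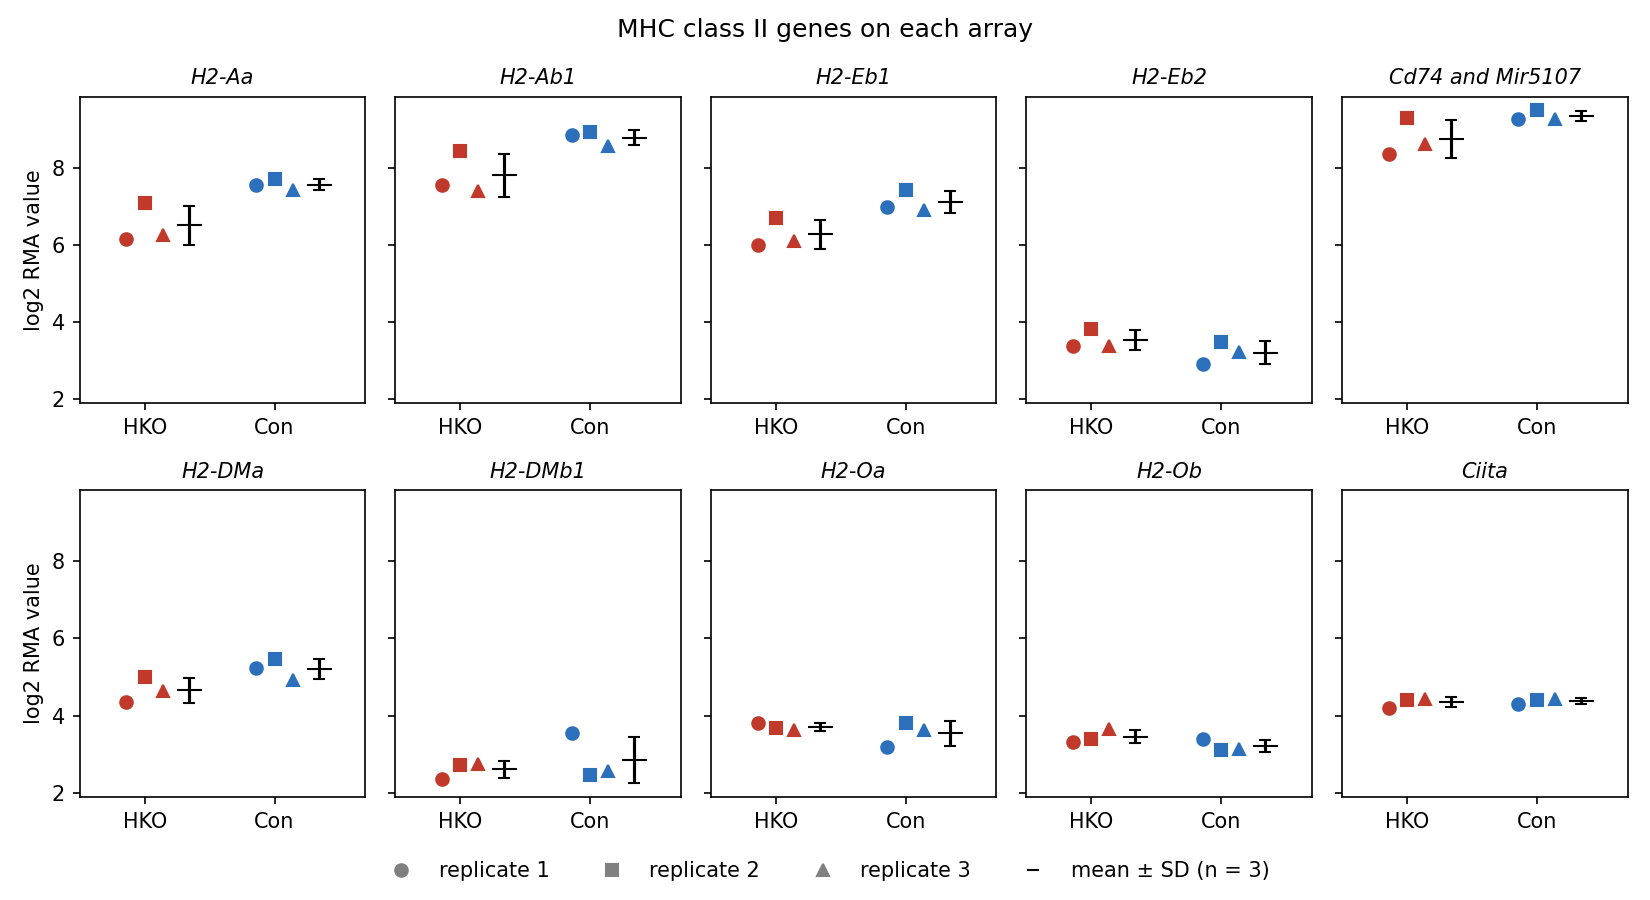
Log2 RMA values (y axis) of the 10 class II probe sets on each array, HKO in red and Con in blue, with the mean ± SD of 3 arrays in black and the marker shape giving the replicate number. H2-Aa, H2-Ab1 and H2-Eb1 have all HKO points below all Con points, and the other 7 panels overlap.

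H2-Aa, the alpha chain of the A molecule, had log2 values of 6.16, 7.09 and 6.26 in HKO and 7.55, 7.69 and 7.42 in Con. All HKO arrays lay below all Con arrays, by at least 0.33, and HKO replicate 2 was the closest to them. The means were 6.502 ± 0.509 in HKO and 7.555 ± 0.136 in Con (SD, n = 3 each), a log2 change of -1.05 ± 0.23 (SE, 95% interval -1.58 to -0.52). This 2.07-fold lower level had an adjusted p of 0.153 in limma. Counting H2-Aa itself, 38 of 22180 genes had a log2 change as low or lower. The change was -1.34 without HKO replicate 2, where it passed (adjusted p = 0.0466), and between -1.12 and -0.88 without each of the other arrays, where it did not; over all 17 alternatives its adjusted p ran from 0.0451 to 0.402.

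H2-Ab1, the beta chain that pairs with H2-Aa, had log2 values of 7.54, 8.44 and 7.40 in HKO and 8.85, 8.91 and 8.56 in Con. The groups did not overlap, though HKO replicate 2 came within 0.13 of the lowest Con array. Its log2 change was -0.98 ± 0.26 (SE, 95% interval -1.57 to -0.39), or 1.97-fold lower (limma, adjusted p = 0.215). Without HKO replicate 2 it was -1.30 (adjusted p = 0.0555), and 47 of 22180 genes had a change as low or lower in the full comparison.

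H2-Eb1, the E beta chain, had log2 values of 6.01, 6.70 and 6.09 in HKO and 6.99, 7.43 and 6.91 in Con. Here too HKO replicate 2 was the highest of its group and still below every Con array, by 0.21. The log2 change was -0.84 ± 0.21 (SE, 95% interval -1.33 to -0.36), or 1.79-fold lower (limma, adjusted p = 0.200). H2-Eb2, a related beta chain gene whose product is less well characterised, went the other way without passing: 3.38, 3.82 and 3.38 in HKO and 2.90, 3.48 and 3.23 in Con, a log2 change of 0.32 ± 0.18 (adjusted p = 0.544) that was 0.17 without HKO replicate 2 or Con replicate 1. Its arrays overlapped, and its means lay below the median over genes (3.95 on every array), so they are not shown to be above background. Because the E beta genes resemble each other, part of either signal may come from the other gene.

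**Figure D2:**
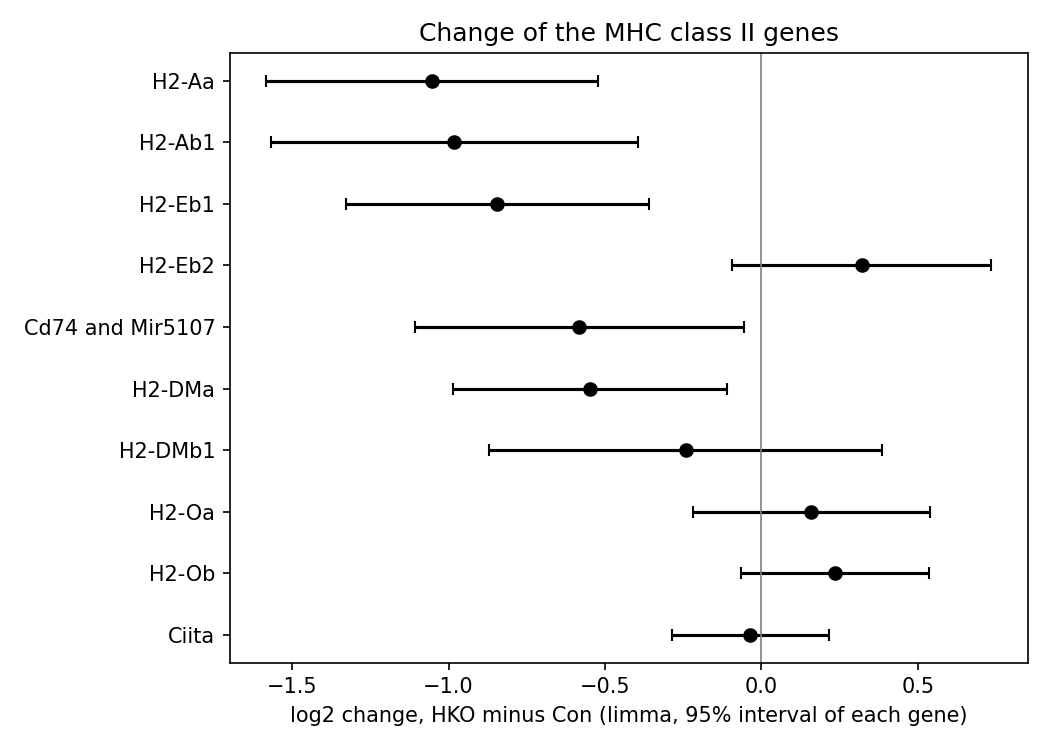
Log2 change, HKO minus Con (x axis), of each class II probe set (y axis), with limma's 95% interval for that probe set alone. The intervals of H2-Aa, H2-Ab1, H2-Eb1, H2-DMa and the Cd74 and Mir5107 probe set lie below 0, and those of the other 5 span 0.

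The invariant chain, which escorts class II pairs to the endosome, was read by the probe set annotated to both Cd74 and Mir5107. Its log2 values were 8.34, 9.30 and 8.60 in HKO and 9.25, 9.48 and 9.25 in Con. HKO replicate 2 lay inside the Con range, 0.03 below the Con mean, while HKO replicates 1 and 3 lay 0.99 and 0.73 below it. The log2 change was -0.58 ± 0.23 (SE, 95% interval -1.11 to -0.06), or 1.496-fold lower (limma, adjusted p = 0.468 over the 1814 probe sets with several genes). Of those probe sets 4.74% were lower and 4.85% higher at an unadjusted p under 0.05. All HKO arrays lay below all Con arrays in 7.55% and above in 8.82%, and 0.0551% passed the adjusted threshold. Leaving out HKO replicate 2 gave -0.86 (adjusted p = 0.129), and leaving out HKO replicate 1 gave -0.38 (0.634).

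H2-DMa, the alpha chain of the peptide exchanger, had log2 values of 4.35, 4.99 and 4.63 in HKO and 5.23, 5.46 and 4.93 in Con. The groups overlapped, since HKO replicate 2 (4.99) lay above Con replicate 3 (4.93). The log2 change was -0.55 ± 0.19 (SE, 95% interval -0.98 to -0.11), or 1.46-fold lower (limma, adjusted p = 0.328). Its partner H2-DMb1 held 2.35, 2.72 and 2.76 in HKO and 3.54, 2.46 and 2.56 in Con. The Con spread of H2-DMb1 rests on Con replicate 1: the log2 change was -0.24 ± 0.27 (adjusted p = 0.784) with it and 0.10 (0.875) without it. H2-DMb2, a near copy of H2-DMb1 whose signal may be shared with it, stood at -0.43 ± 0.17 (adjusted p = 0.395), and all these beta chain means lay below the median over genes.

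The chains of H2-DO, which restrains H2-DM mainly in B cells, had higher means in HKO, without passing. H2-Oa held 3.81, 3.67 and 3.62 in HKO and 3.18, 3.81 and 3.63 in Con, a log2 change of 0.16 ± 0.16 (adjusted p = 0.761). H2-Ob held 3.32, 3.40 and 3.64 in HKO and 3.40, 3.11 and 3.15 in Con, a change of 0.23 ± 0.13 (adjusted p = 0.543). Both genes overlapped between the groups and lay below the median over genes. The sign of H2-Oa also turned, to -0.021, without Con replicate 1.

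Ciita, the transactivator of the whole family, had log2 values of 4.20, 4.41 and 4.44 in HKO and 4.30, 4.42 and 4.44 in Con. The values of the groups interleaved, with a log2 change of -0.04 ± 0.11 (SE, 95% interval -0.29 to 0.21; limma adjusted p = 0.931) whose sign turned under a second quantile normalization (0.00425) and without HKO replicate 1 (0.038). Within each array, the log2 value of H2-Aa minus that of Ciita averaged 2.15 ± 0.46 in HKO and 3.17 ± 0.16 in Con (SD, n = 3 each; difference -1.02). The same difference between the groups was -0.95 for H2-Ab1 and -0.81 for H2-Eb1. All HKO arrays lay below all Con arrays for these 3 pairs. Each had p = 0.1 in an exact permutation test, two-sided (0.1 adjusted over the 3 pairs), and no lower p is possible with 3 arrays in each group. The 3 genes were already separated by group on their own, and Ciita hardly changed. The test therefore adds nothing to their values, and no conclusion is drawn from it. A small change in the level of Ciita is within its interval, and its mean (4.37 over the 6 arrays) was close to the median over genes, where changes are compressed.

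HKO replicate 2 was the highest HKO array for 6 of the 10 probe sets, H2-Aa, H2-Ab1, H2-Eb1, H2-Eb2, H2-DMa and the Cd74 and Mir5107 probe set, where it was the highest for 32.1% of all genes. HKO replicate 3 was the highest for H2-DMb1, H2-Ob and Ciita, and HKO replicate 1 for H2-Oa. For H2-Aa, its deviation from the Con mean was -0.47, against -1.39 and -1.30 for HKO replicates 1 and 3. For H2-Ab1 the deviation was -0.34 in HKO replicate 2, against -1.23 and -1.37. Without HKO replicate 2, all HKO arrays lay below all Con arrays for 4 of the 9 genes, H2-DMa being added, where 15.0% of all genes did so. In that setting 1 of the 9, H2-Aa, passed the adjusted threshold in limma, as did 6 of all 22180 genes.

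**Figure D3:**
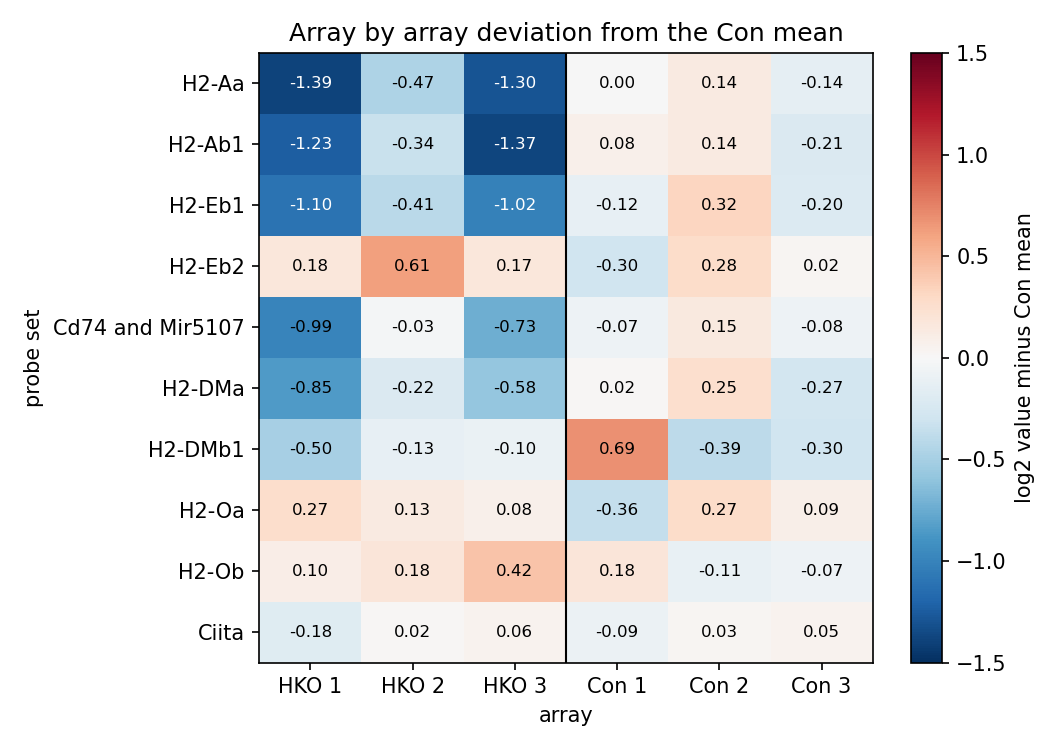
Deviation of each class II probe set (rows) from its Con mean on each array (columns), in log2 units, blue for lower and red for higher. HKO replicate 2 shows deviations between -0.47 and -0.03 for H2-Aa, H2-Ab1, H2-Eb1, H2-DMa and the Cd74 and Mir5107 probe set, where HKO replicates 1 and 3 show -1.39 to -0.58.

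The genes whose array pattern was most like that of H2-Aa were found by the root mean square difference between log2 values centred on their mean over the 6 arrays. H2-Ab1 (0.09) and H2-Eb1 (0.16) were the nearest of all genes, and H2-DMa ranked 44th, with a difference of 0.30. The 5 nearest genes outside the family were Anxa5, a phosphatidylserine-binding annexin (0.18), S100a11, a calcium-binding protein (0.19), Insig2, a protein of the endoplasmic reticulum (0.19), Spon2, a secreted matrix protein (0.19), and Zfp9, a zinc finger protein (0.21). Their log2 changes were -0.92, -1.12, -0.89, -0.87 and -0.88, and none passed in limma (adjusted p from 0.0691 to 0.124). This is a description over 6 arrays that also separate by group.

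Of 16 measured genes of endosomal antigen processing, 6 were lower at an unadjusted p under 0.05 and 0 higher, 0 passed the adjusted threshold, and the median log2 change was -0.16. Of all genes 6.56% were lower and 5.31% higher at that p. The 6 include H2-DMb2, the near copy of H2-DMb1. Ctss, the cathepsin that trims the invariant chain, had log2 values of 7.86, 7.88 and 7.54 in HKO and 8.38, 8.39 and 7.97 in Con, a change of -0.49 ± 0.15 (adjusted p = 0.287). Ifi30, the reductase that unfolds disulphide-bonded antigens, had 6.997, 7.093 and 6.991 in HKO and 7.483, 7.796 and 7.159 in Con, a change of -0.45 ± 0.16 (adjusted p = 0.333). Both had all HKO arrays below all Con arrays, as did the kinesin Kif5b at -0.27 ± 0.10 (adjusted p = 0.353). Counting these, 5 of the 16 genes did so, where 10.1% of all genes did. For 1 of the 16 all HKO arrays lay above, where 8.05% of all genes did so. Of the single arrays left out, HKO replicate 1 and Con replicate 2 each brought the count of 6 to 1, HKO replicate 3 to 2 and Con replicate 1 to 3.

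The factors that bind class II promoters or carry the interferon gamma signal to Ciita had a median log2 change of 0.01 over 17 measured genes. At an unadjusted p under 0.05, 1 was higher and 0 lower, a share near that of all genes. Irf2, an interferon regulatory factor, was that gene: 8.17, 8.22 and 8.42 in HKO and 7.93, 7.89 and 8.05 in Con, a change of 0.32 ± 0.11 (adjusted p = 0.332). The count was 0 when HKO replicate 3, Con replicate 1 or Con replicate 2 was left out, and the sign of the median turned for HKO replicate 1 (-0.00144), HKO replicate 2 (-0.04) and Con replicate 2 (-0.03). Nfya, the NF-Y subunit that contacts the Y box, stood at 0.21 ± 0.11 (adjusted p = 0.516), the myeloid factor Spi1 at -0.17 ± 0.13 (0.660) and the lymphoid factor Irf4 at -0.15 ± 0.13 (0.722).

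MHC class I presentation, the sister pathway that displays peptides from inside nearly every cell, had a median log2 change of 0.05 over 16 measured genes, with 1 higher and 0 lower at an unadjusted p under 0.05. That share is near the 5.31% of all genes that were higher. The median was -0.07 without HKO replicate 2, and the count of higher genes was 0 without HKO replicate 1 (where 1 was lower), HKO replicate 2, Con replicate 1 or Con replicate 3. H2-T23, a nonclassical class I chain, was that gene, at 0.40 ± 0.15 (adjusted p = 0.360), with 7.85, 8.19 and 7.64 in HKO and 7.52, 7.59 and 7.36 in Con. The chaperones Calr (-0.25 ± 0.11, adjusted p = 0.421) and Pdia3 (-0.15 ± 0.09, 0.597) had lower means, and the immunoproteasome subunit Psmb8 a higher one (0.17 ± 0.12, 0.624). Among costimulatory and inhibitory ligands and receptors, with the T cell receptors that bind class II, 0 of 11 passed an unadjusted p of 0.05 in limma. The median was 0.03. In that list Pdcd1lg2, a ligand of the inhibitory receptor PD-1, stood at -0.22 ± 0.14, the inhibitory receptor Ctla4 at 0.15 ± 0.10, Cd4, the coreceptor that binds class II, at 0.38 ± 0.25 and the costimulatory receptor Cd28 at 0.17 ± 0.13.

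**Figure D4:**
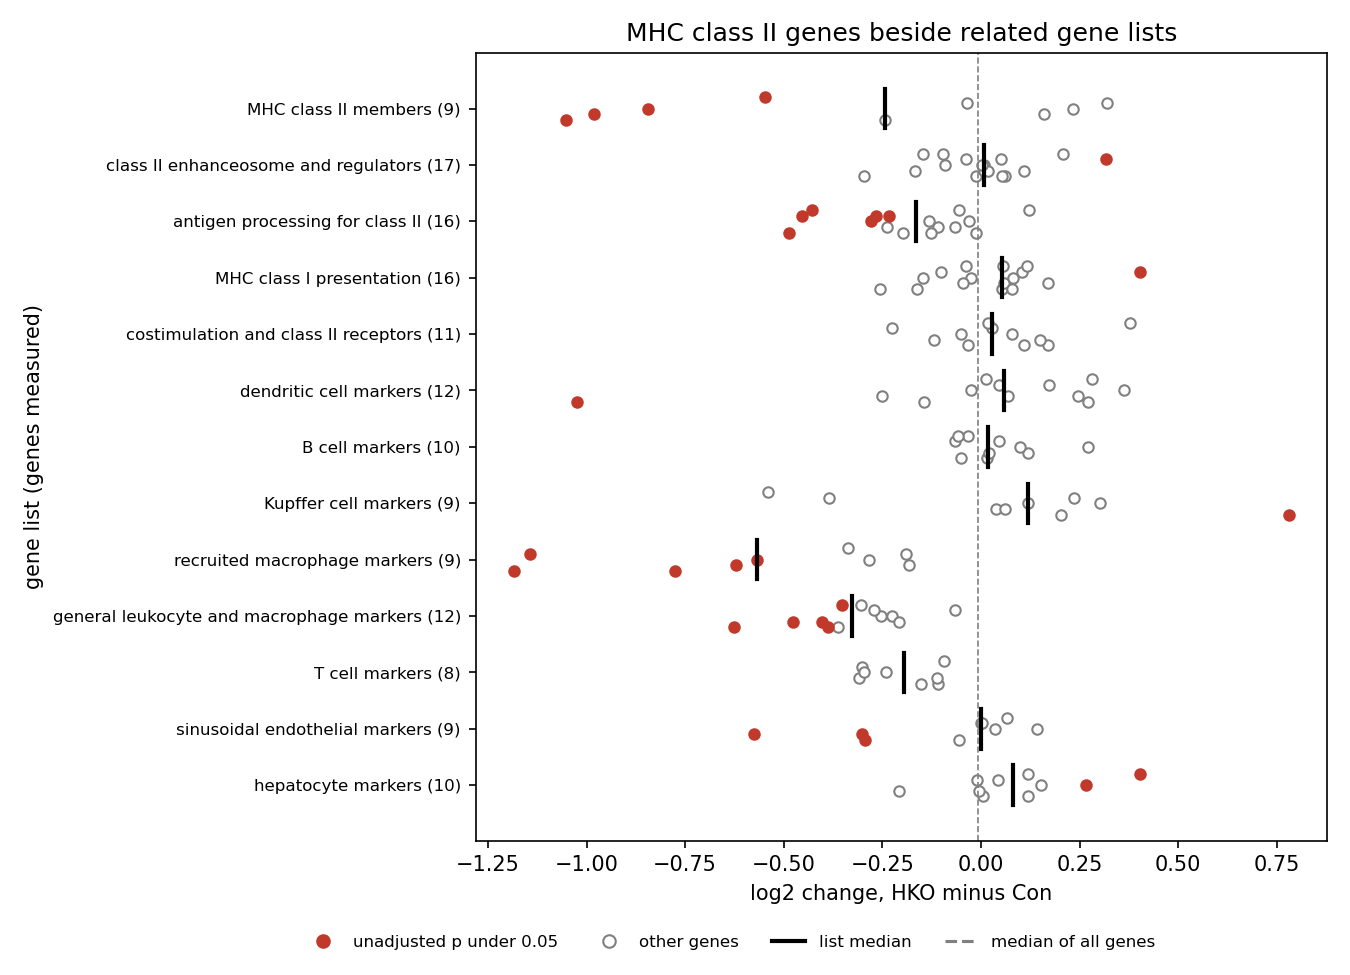
Log2 change, HKO minus Con (x axis), of each measured gene in 13 lists (y axis, number measured in brackets), red for an unadjusted p under 0.05, with list medians as black bars and the median of all genes as a dashed line. The class II genes split into 4 between -1.05 and -0.55 and 5 between -0.24 and 0.32, and the recruited macrophage list has the lowest median, -0.57.

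Markers of cells that can carry class II were read beside these genes, and their part in the result was not tested. Markers of recruited and lipid-associated macrophages had lower means in 9 of 9 measured genes, 5 of them at an unadjusted p under 0.05 and 0 past the adjusted threshold. Of all 22180 genes, 11484 had lower means, and 6.56% were lower at that p. The count of 5 was 7 without HKO replicate 2 and 4 without any other 1 array. The mean level of these markers was 4.04, 4.47 and 4.29 on the HKO arrays and 4.76, 4.95 and 4.85 on the Con arrays, without overlap. HKO replicate 2 was the highest HKO array here, as it was by list mean in 8 of the 12 lists beside the class II genes, class I presentation among them. By list mean, 4 of those 12 lists did not overlap between the groups. They were recruited macrophages, general leukocytes and macrophages, antigen processing and sinusoidal endothelium, each lower in HKO. Gpnmb, a glycoprotein of lipid-laden macrophages, stood at -1.18 ± 0.22 (adjusted p = 0.112), the lectin Lgals3 at -0.57 ± 0.11 (0.125), and the chemokine receptors Ccr2 at -0.78 ± 0.25 (0.300) and Cx3cr1 at -0.62 ± 0.21 (0.303). General leukocyte and macrophage markers had lower means in 12 of 12 genes (median -0.33), with list averages of 5.998, 6.17 and 5.95 in HKO and 6.43, 6.47 and 6.20 in Con. The signalling adaptor Tyrobp stood at -0.48 ± 0.11 (adjusted p = 0.179), the lysosomal protein Cd68 at -0.40 ± 0.12 (0.259), Cd52 at -0.35 ± 0.11 (0.278) and the tetraspanin Cd53 at -0.39 ± 0.16 (0.401). At an unadjusted p under 0.05, 5 of the 12 were lower. That count was 9 when Con replicate 3 was left out, and 3 for HKO replicate 1, HKO replicate 3, Con replicate 1 or Con replicate 2.

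Among 12 measured dendritic cell markers, 1 passed the adjusted threshold, where 0.203% of all genes did. Itgax, the CD11c integrin chain, fell to 3.28, 3.55 and 3.41 in HKO, against 4.29, 4.60 and 4.42 in Con, a log2 change of -1.02 ± 0.12 (limma adjusted p = 0.0280) that passed with all 6 arrays and not without any 1 of them. Its HKO mean was below the median over genes. Of the 12 markers, 4 had lower and 8 higher means in HKO. The list median was 0.06, and its mean level was 4.01 to 4.21 on the HKO arrays and 4.04 to 4.13 on the Con arrays. All HKO arrays lay above all Con arrays for 3 of the 12, where 8.05% of all genes did so. All lay below for 1, Itgax, where 10.1% of all genes did so. Among the 3 were the maturation marker Cd83 (0.27 ± 0.12, limma adjusted p = 0.442) and the lectin Cd209a (0.28 ± 0.13, 0.461). Fscn1, an actin bundler of mature dendritic cells, stood at -0.25 ± 0.13 (adjusted p = 0.496).

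B cell markers, 8 of 10 below the median over genes, had a median log2 change of 0.02, a mean level of 3.196 to 3.297 on the HKO arrays and 3.192 to 3.228 on the Con arrays, and 0 genes at an unadjusted p under 0.05. Of these the complement receptor Cr2 stood at 0.27 ± 0.15, the receptor subunits Cd79b and Cd79a at 0.10 ± 0.12 and 0.12 ± 0.15, and Fcrla at -0.06 ± 0.11. Kupffer cell markers had a median of 0.12 over 9 genes and mean levels of 6.96 to 7.19 on the HKO arrays and 6.88 to 7.11 on the Con arrays. Leaving out HKO replicate 1 gave a median of 0.0062 and Con replicate 2 one of 0.04, while omitting Con replicate 1 gave 0.22 and HKO replicate 3 gave 0.24. At an unadjusted p under 0.05, 1 gene was lower and 2 higher without HKO replicate 2, and 2 were lower and 1 higher without Con replicate 3. With all arrays, 5.31% of all genes were higher at that p. The complement component C6, which hepatocytes also make, was the 1 gene higher at an unadjusted p under 0.05 (0.78 ± 0.20, adjusted p = 0.220). Cd5l (-0.39 ± 0.17, 0.435) and the scavenger receptor Marco (-0.54 ± 0.25, 0.457) had lower means, and the iron exporter Slc40a1 a higher one (0.24 ± 0.11, 0.471).

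T cell markers had lower means in 8 of 8 genes (median -0.20, but -0.38 when Con replicate 3 was left out, -0.13 for HKO replicate 3 and -0.08 for Con replicate 1), 0 of them at an unadjusted p under 0.05 (2 without HKO replicate 1 or Con replicate 3), with mean levels of 3.36 to 3.57 on the HKO arrays and 3.41 to 3.88 on the Con arrays. Of all 22180 genes, 11484 had lower means. Cd8a, the coreceptor for class I, stood at -0.30 ± 0.15, the regulatory T cell factor Foxp3 at -0.30 ± 0.16, Cd3d at -0.31 ± 0.25 and Cd5 at -0.11 ± 0.11. Sinusoidal endothelial markers, from cells that can also carry class II, had a median of 0.00 (-0.08 without HKO replicate 1 or HKO replicate 2) and mean levels of 7.37 to 7.45 on the HKO arrays and 7.50 to 7.55 on the Con arrays. In that list 3 of 9 genes were lower at an unadjusted p under 0.05, where 6.56% of all genes were. They were the junction proteins Pecam1 (-0.29 ± 0.09, adjusted p = 0.293) and Cdh5 (-0.30 ± 0.11, 0.337) and the hyaluronan receptor Lyve1 (-0.57 ± 0.20, 0.333). The count of 3 was 1 without HKO replicate 1 or Con replicate 2, and 2 without HKO replicate 2 or Con replicate 1. The lectin Clec4g stood at 0.14 ± 0.11 (adjusted p = 0.674). Hepatocyte markers had a median of 0.08, with Serpina1a (0.40 ± 0.11, adjusted p = 0.240) and the urea cycle enzyme Cps1 (0.27 ± 0.11, 0.394) higher at an unadjusted p under 0.05, and Apoa1 (0.15 ± 0.11) and Ahsg (0.12 ± 0.09) with higher means. That count of 2 was 1 when HKO replicate 1 or any 1 Con array was left out. Of all genes 5.31% were higher at that p with all arrays.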

How the data were processed

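The values are the authors' deposited log2 signals of each probe set on each array. According to the submitters' processing notes they come from RMA, run in R 3.3.0. This corrects background, equalises the distributions of the arrays and summarises probes, so differences are relative to the array and changes of dim genes are compressed. The sources used here name no other filter and no genome build for the array. Of 41345 probe sets, 23521 had 1 annotated gene, 1814 several and 16010 none. The probe set with the highest mean over 6 arrays stood for each gene, leaving 22180 genes, with no filter on low values. Arrays have no read depth; their number limits the precision.

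HKO was compared with Con with limma (version 3.58.1, under R 4.3.3), fitting group alone with lmFit and moderating with eBayes, two-sided. P-values were adjusted by Benjamini and Hochberg's method across all genes tested, and 0.05 was the threshold. The fit was tested on simulated data. Probe sets with several genes were fitted on their own. Members and lists were chosen with earlier results of these data known. The genes named were the members, Snai2, up to 4 genes of lowest p in each list and the 5 genes most like H2-Aa; H2-Ea was chosen after its values were seen. Of the listed genes, H2-D1, Clec9a, Spp1, Trac and Lck had no probe set of 1 gene here, and some others are not reported here. Each array is a separate mouse per the labels. Alternatives covered normalization, filters, probe sets, variance models, array weights, a replicate block and leaving out each array. Figures were drawn with matplotlib 3.10.9.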

Additional observations from a re-analysis of the deposited data

How the results depend on the processing

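The directions of H2-Aa, H2-Ab1, H2-Eb1, H2-Eb2, H2-DMa, H2-Ob and the Cd74 and Mir5107 probe set held under every alternative that kept them. H2-Aa also passed with a variance trend (adjusted p = 0.0451). The number of class II genes past adjusted p 0.05 was 0 in the comparison as reported, 1 with a variance trend, and 0 to 1 with 1 array left out. The number of all genes past it was 45, and 138 over genes at or above the median level, 215 with a variance trend, 0 without shared variance between genes in limma (where 3 class II genes were lower at an unadjusted p under 0.05), and 4 to 32 with 1 array left out. Over genes at or above the median level, where 5 members remained, the class II median was -0.84. The sign of Ciita turned under a second quantile normalization (0.00425). With 1 array left out, Ciita ran from -0.081 to 0.038 (turned without HKO replicate 1), H2-DMb1 from -0.44 to 0.10 and H2-Oa from -0.021 to 0.29 (both turned without Con replicate 1); the cause was not tested. With the replicate number as a replicate block, 3 genes and 0 class II genes passed; deviations of same-numbered arrays correlated at 0.03, 0.02 and 0.02 over genes, which does not pair them, although each array correlated best with its own number.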

Other observations

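A second probe set of H2-Oa, annotated also to BC051537, had log2 values of 2.504, 2.607 and 2.861 in HKO and 2.207, 2.696 and 2.928 in Con, a log2 change of 0.05 ± 0.19 (limma adjusted p = 0.972), beside 0.16 for the probe set of H2-Oa alone. H2-Ea, the E alpha locus, which C57BL/6 mice do not express and which was chosen after its values were seen, held 1.96, 2.02 and 2.70 in HKO and 2.28, 2.41 and 2.15 in Con, a change of -0.05 ± 0.20 (limma adjusted p = 0.945).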
